A study of Mus musculus with 89 samples.

Results

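The 10 genes described here were the transcription factors Atoh1, Spdef, Gfi1, Neurog3, Neurod1, Isl1, Pax6, Sox4, Pou2f3 and Gfi1b, which act in the secretory lineages of the intestinal epithelium. They were taken as a named list, and each was read from the UMI table of clumps (27538 genes) and from the UMI table of single cells (23379 genes) of the mouse jejunum. 9 of the 10 were measured in both tables, and Neurod1 was not analysed here. Each was described by the share of cells of a type with at least 1 unique molecular identifier (UMI, a tag that marks 1 captured mRNA molecule) and by its level in clumps from the crypt and from the villus.

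The epithelium of the small intestine is renewed from stem cells at the base of the crypts. Progenitors that switch on Atoh1 enter the secretory branch and become goblet, Paneth, enteroendocrine or tuft cells, whereas cells kept under Notch signalling become absorptive enterocytes. Daughter cells then move up the villus and are shed at its tip, while Paneth cells stay in the crypt. A lineage factor can therefore mark a short progenitor state in the crypt, or be kept in the mature cell along the villus.

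All mice were untreated C57BL/6 males on regular chow, with no transgene in the labels, and the jejunum was taken apart with EDTA. ClumpSeq libraries held pairs of attached cells (4n DNA content, 27 plates, mice 1 to 5, 3 months old) or larger clumps (h4n, 14 plates, mice 1, 4 and 5, 3 months old). A further 4 plates from mouse 6 were labelled h2n (3 months old) and were kept out of the comparisons. Single cells filled 44 plates from mice 1 to 4, which were 3 months old except for 3 plates of mouse 2 at 4 months. The labels do not say whether these 3 plates came from the same animal, so the values of mouse 2 may pool 2 animals. They held 13 of its 219 enteroendocrine-like and 34 of its 157 tuft-like cells. Isl1 was in 8 of those 13 and in 61 of the other 206, and Pou2f3 in 6 of the 34 and in 22 of the other 123. Plates held 94810 to 4153056 UMIs for clumps and 109338 to 2348338 for single cells. The same 384 well barcodes serve every plate by design, and no pair of wells over 500 UMIs held identical counts. The mice of both tables are numbered separately and were not treated as the same animals.

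After filtering, 5883 clumps had a zone, given by enterocyte landmark genes that hold none of the 10 factors. Of these, 3251 were crypt clumps (25411989 UMIs, median 4878 per clump), 1821 mid-villus clumps (5478739 UMIs, median 1811) and 811 villus tip clumps (1566224 UMIs, median 1346). Mouse 4 alone gave 2053 of the crypt clumps, so the main levels are given for each mouse, and those pooled over mice are named as pooled. Of 5199 single cells, 213 were goblet-like (median 1991 UMIs), 251 enteroendocrine-like (1825), 186 tuft-like (2206.5), 2519 enterocyte-like (2838) and 1637 lymphocyte-like (848), each named from marker genes among the 50 leading genes of its cluster. A cluster of 393 cells was led by both globin and immunoglobulin genes and is called the blood cell cluster. No cluster was named for Paneth or stem cells at this resolution (0.1). At a resolution of 0.5, 103 cells formed an unnamed cluster led by histone genes. A further 316 cells (302 of mouse 2) were led by Defa genes, which mark Paneth cells, although 11 lymphocyte markers were among their 50 leading genes. All but 1 of these 316 are among the lymphocyte-like cells here. Mouse 2 supplied 219 of the 251 enteroendocrine-like and 157 of the 186 tuft-like cells. Plates sorted on CD24 supplied 188 and 102 of them, so the number of cells of a type cannot be told apart from the sort.

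The 10 loci are given as RefSeq gene spans on GRCm38.p6. Atoh1 is at chr6:64729125-64731245, Spdef at chr17:27714446-27731003 and Gfi1 at chr5:107716655-107725805. Neurog3 is at chr10:62133090-62134763, Neurod1 at chr2:79452637-79456636, Isl1 at chr13:116298270-116309688 and Pax6 at chr2:105668896-105698410. Sox4 is at chr13:28948919-28953699, Pou2f3 at chr9:43123927-43205755 and Gfi1b at chr2:28609450-28621982. The library chemistry tags the 3' end of transcripts, so the counts give whole-gene levels and cannot tell promoters or isoforms apart.

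Atoh1, Neurog3 and Neurod1 are basic helix-loop-helix factors, a class that binds E-boxes (CANNTG). In the 250 bases before each annotated start, the palindromic E-box CAGCTG occurred in Neurog3, Sox4 and Isl1, once in each, and not in the windows of Atoh1, Spdef, Neurod1, Gfi1, Gfi1b or Pax6. Pou2f3 was not included. It occurred in 13% of all 32851 RefSeq windows of this length, and any CANNTG, which includes CAGCTG, in 66.2%. Of the 11 windows of the factors (Pax6 and Gfi1 have 2 each), 8 held a CANNTG. The E-box CAGATG, or CATCTG on the other strand, was in 0 of the 11 and in 14.44% of all windows. Both strands were covered, since CANNTG and CAGCTG read the same on the other strand. Gfi1b with its 6 UMIs aside, the genes with CAGCTG had the highest pooled ratios of crypt to villus level among the factors. Their 3 windows, of the 11, are therefore shown. They run 5′ to 3′ on the strand of the gene, with the E-box in capitals, at chr10:62132840-62133089 (plus strand) for Neurog3, chr13:28953700-28953949 (minus strand) for Sox4 and chr13:116309689-116309938 (minus strand) for Isl1.
Neurog3: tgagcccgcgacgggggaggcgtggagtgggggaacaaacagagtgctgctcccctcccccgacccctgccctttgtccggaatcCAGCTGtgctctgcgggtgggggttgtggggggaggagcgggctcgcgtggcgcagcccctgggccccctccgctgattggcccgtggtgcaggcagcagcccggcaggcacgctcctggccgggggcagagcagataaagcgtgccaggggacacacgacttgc
Sox4: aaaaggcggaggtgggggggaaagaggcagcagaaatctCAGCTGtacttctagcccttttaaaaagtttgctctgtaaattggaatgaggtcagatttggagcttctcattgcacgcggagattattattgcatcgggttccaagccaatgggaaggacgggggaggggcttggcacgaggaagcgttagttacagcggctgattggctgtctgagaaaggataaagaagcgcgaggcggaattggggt
Isl1: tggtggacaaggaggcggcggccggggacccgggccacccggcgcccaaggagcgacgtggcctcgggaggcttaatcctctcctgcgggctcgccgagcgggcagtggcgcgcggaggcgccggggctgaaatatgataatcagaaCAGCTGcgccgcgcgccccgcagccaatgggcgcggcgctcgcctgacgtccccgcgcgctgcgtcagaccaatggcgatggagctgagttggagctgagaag
The match is a count of letters, and binding at these places was not measured. A link between the E-box and the crypt level was not tested. The pooled ratio of Neurog3 is a lower bound, and that of Isl1 has an interval of 0.925 to 15.1.

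Goblet-like cells carried Atoh1 and Spdef. Atoh1, the factor that commits progenitors to the secretory branch, had a UMI in 57 of 213 goblet-like cells, or 26.8% (95% exact binomial interval 20.9 to 33.2%). By mouse the share was 15.6%, 37.0%, 22.2% and 26.7% in mice 1 to 4. In enterocyte-like cells, which should lack it and were sequenced deeper, the share was 4 of 2519, or 0.159%. Every mouse therefore lay far above the enterocyte-like share. Cells were grouped by clustering without these factors, but types and shares come from the same cells, so all shares are descriptions without a test. Intervals cover counting error only.

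Spdef, an ETS-family factor of goblet and Paneth cell maturation, was found in 42 of 213 goblet-like cells, or 19.7% (14.6 to 25.7%). Its share was 13.3%, 22.2%, 20.8% and 20.0% in mice 1 to 4, against 0.0397% of enterocyte-like cells. The mice were closer together for Spdef than for Atoh1. Both factors together were seen in 17 goblet-like cells, or 17 of the 57 with Atoh1 and 17 of the 42 with Spdef. When each cell was thinned to 500 UMIs, the goblet-like shares were 6.76% for Atoh1 and 5.80% for Spdef, and in enterocyte-like cells 0.0404% and 0%.

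Gfi1, a zinc finger repressor that acts below Atoh1 and is also known in blood cell development, was split between a secretory and an immune type. It had a UMI in 8 of 213 goblet-like cells, or 3.76% (1.64 to 7.27%), and in 76 of 1637 lymphocyte-like cells, or 4.64% (3.68 to 5.78%). The lymphocyte-like share was 4.97%, 4.14% and 5.13% in mice 2 to 4, and mouse 1 had no such cells. At the finer resolution the Defa-led cluster had Gfi1 in 14 of 316 cells, or 4.43% (2.44 to 7.32%), and the other lymphocyte-like cluster in 59 of 1259, or 4.69% (3.59 to 6.00%). These intervals overlap, while the lymphocyte-like cells had less than the depth of the goblet-like cells (medians of 848 and 1991 UMIs). After thinning to 500 UMIs the shares were 2.74% in lymphocyte-like and 0.966% in goblet-like cells. No enteroendocrine-like or tuft-like cell had a Gfi1 UMI, which allows shares of up to 1.20% and 1.61% by 3 counts and of 1.46% and 1.96% by the exact interval. With the wells over the upper limits included and types given by the most marker UMIs, Gfi1 was in 7.23% of goblet-like (4.34 to 11.2%) and 5.29% of lymphocyte-like cells (4.18 to 6.59%), the other order. In enterocyte-like cells it was found in 0.0794%.

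**Figure D1:**
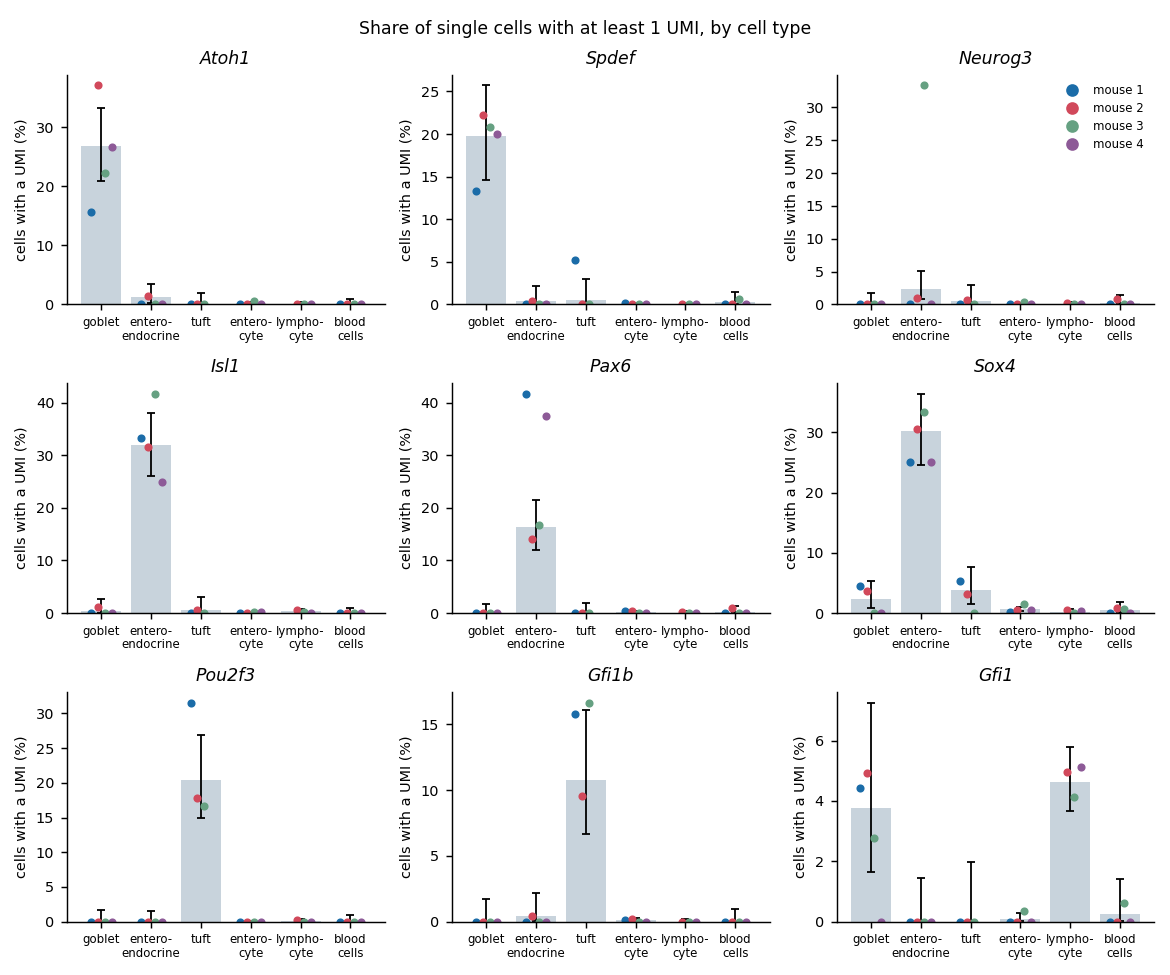
Share of single cells with at least 1 UMI of each factor (vertical axes, percent, each panel on its own scale) by cell type, with bars for all cells of a type, 95% exact binomial intervals, and a point for each mouse with at least 5 cells of the type. Atoh1 (26.8%) and Spdef (19.7%) peak in goblet-like cells, Isl1, Pax6 and Sox4 in enteroendocrine-like cells, and Pou2f3 and Gfi1b in tuft-like cells, while Gfi1 has bars of 3.76% in goblet-like and 4.64% in lymphocyte-like cells.

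In the enteroendocrine-like cells, Isl1 and Sox4 were found most often, then Pax6 and Neurog3. Atoh1 was in 3 cells, Spdef and Gfi1b in 1 each, and Pou2f3 and Gfi1 in none. Isl1, a LIM homeodomain factor of hormone-producing cells, had a UMI in 80 of 251 cells, or 31.9% (26.2 to 38.0%). Its share was 33.3%, 31.5%, 41.7% and 25% in mice 1 to 4, and 0.0794% in enterocyte-like cells. No mouse fell near the enterocyte-like share. Pax6, a paired homeodomain factor of endocrine cells, was found in 41 of 251 cells, or 16.3% (12.0 to 21.5%). For Pax6 the shares were 41.7%, 14.2%, 16.7% and 37.5%, of which only that of mouse 2 rests on more than 12 cells. The enterocyte-like share of Pax6 was 0.198%. Thinned to 500 UMIs, the shares were 14.0% for Isl1 and 4.12% for Pax6.

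Sox4, an SRY-box factor of progenitors, was found in 76 of 251 enteroendocrine-like cells, or 30.3% (24.7 to 36.4%), and in 25%, 30.6%, 33.3% and 25% of them in mice 1 to 4. It was the factor with the broadest spread over types. Goblet-like cells had it in 2.35% and tuft-like cells in 3.76%, against 0.635% of enterocyte-like cells. After thinning, the order was 8.64% in enteroendocrine-like cells, 0.559% in tuft-like, 0.483% in goblet-like and 0.121% in enterocyte-like cells. The goblet-like and tuft-like intervals (0.766 to 5.39% and 1.53 to 7.60%) overlap, so these types cannot be ordered for Sox4.

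Neurog3, the factor that starts the enteroendocrine programme and is shut off as the cells mature, had a UMI in 6 of 251 enteroendocrine-like cells, or 2.39% (0.882 to 5.13%), with 18 UMIs in all. 4 of the 6 cells came from the 12 cells of mouse 3 and 2 from the 219 cells of mouse 2. Enterocyte-like cells had it in 0.0794%. 5 of the 6 cells also had Sox4, and 2 had Isl1. Isl1 and Pax6 were found together in 27 cells, that is in 27 of 80 cells with Isl1 and 27 of 41 with Pax6. Isl1 and Sox4 shared 27 cells as well (of 80 and 76), and Pax6 and Sox4 shared 13 (of 41 and 76).

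The enteroendocrine-like cells were also split by the larger of their summed UMIs of enterochromaffin genes, which serve serotonin synthesis and storage, and of peptide hormone genes. Isl1 was found in 80 of 153 cells on the peptide hormone side, or 52.3% (44.1 to 60.4%), and in 0 of 98 enterochromaffin cells, which allows a share of up to 3.06% by 3 counts and of 3.69% by the exact interval. Within mouse 2 the counts were 69 of 129 and 0 of 90, and in the other mice together 11 of 24 and 0 of 8. Pax6 was found in 24.2% of the peptide hormone cells (17.6 to 31.8%) and in 4.08% of the enterochromaffin cells (1.12 to 10.1%). The intervals of both genes did not overlap between the classes. Sox4 was found in 28.1% (21.1 to 35.9%) and 33.7% (24.4 to 43.9%), with overlapping intervals. Neurog3 was seen in 2 and 4 cells. Depth was alike, with medians of 1884 UMIs in peptide hormone and 1767 in enterochromaffin cells. The 3 cells with Atoh1 were all in the enterochromaffin class.

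**Figure D2:**
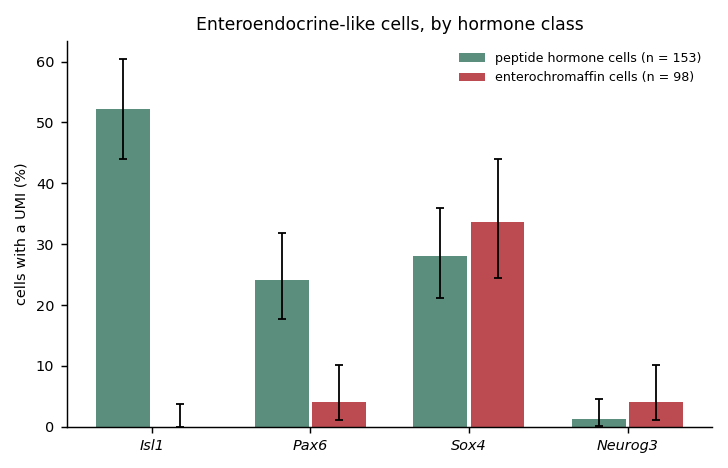
Share of enteroendocrine-like cells with a UMI of 4 factors (vertical axis, percent), in 153 cells with more peptide hormone UMIs and 98 with more enterochromaffin UMIs, with 95% exact binomial intervals. Isl1 stands at 52.3% against 0% and Pax6 at 24.2% against 4.08%, while the intervals of Sox4 and Neurog3 overlap between the classes.

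Tuft-like cells carried Pou2f3 and Gfi1b. Pou2f3, a POU factor required for tuft cells, had a UMI in 38 of 186 tuft-like cells, or 20.4% (14.9 to 26.9%), and in 31.6%, 17.8% and 16.7% of them in mice 1 to 3. In mouse 4, 3 of 4 tuft-like cells had it. None of the 2519 enterocyte-like cells had a Pou2f3 UMI, which allows a share of up to 0.119% by 3 counts and of 0.146% by the exact interval. Gfi1b, a zinc finger repressor related to Gfi1, was found in 20 of 186 tuft-like cells, or 10.8% (6.69 to 16.1%), and in 15.8%, 9.55% and 16.7% in mice 1 to 3. Enterocyte-like cells had it in 0.0794%. In 3 tuft-like cells both factors were found, of 38 and 20. At 500 UMIs per cell the shares were 5.59% for Pou2f3 and 2.79% for Gfi1b.

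The genes with the most similar pattern were found by Pearson's correlation over 22 sums of cell type and mouse, which share library depth within a mouse, as a description only. Atoh1 was closest to Gm12511 (0.988), Capn9 (0.986) and Tpsg1 (0.981), and Spdef to Capn9 (0.969), Atoh1 (0.967) and Tpsg1 (0.964). Isl1 was closest to Rab3c (0.991), Pax6 to Ffar1 (0.992) and Sox4 to Cck (0.968). For the tuft cell factors the closest were Adgrg2 (0.996) for Pou2f3 and Tmem158 (0.991) for Gfi1b. Neurog3 was closest to Gm14148 (0.957) and Gfi1 to Pdzd2 (0.902). Gfi1 and Neurog3 had the lowest of these values.

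In the clumps, a factor can be read against the secretory cell that a clump carried, taken as at least 10 UMIs of that type's markers. Among crypt clumps, 686 carried a goblet cell by this rule, 696 a Paneth cell, 53 a tuft cell, 41 an enteroendocrine cell and 2046 none of these. A clump can carry several types. Atoh1 was found in 114 of the 686 goblet clumps, or 16.6% (13.9 to 19.6%), in 6.47% of Paneth clumps and in 19 of 2046 clumps with none, or 0.929%. Spdef followed the same order, with 145 of 686, or 21.1% (18.1 to 24.4%), then 8.91% and 0.587%. Gfi1 was found in 29 of 686 goblet clumps, or 4.23% (2.85 to 6.02%), and in 1 clump with none. Goblet clumps were deeper, with a median of 12149.5 UMIs against 2681.5 in clumps with none. The pooled level of Atoh1 in CPM (UMIs of the gene per 1000000 UMIs) was 14.5 (12.3 to 17.0, exact Poisson interval) in goblet clumps and 2.01 in clumps with none. By mouse it was 12.6, 46.0, 17.2, 14.1 and 19 in goblet clumps of mice 1 to 5 and 2.01, 1.44, 1.60, 2.12 and 4.14 in clumps with none, higher in goblet clumps of 5 of 5 mice. Spdef stood at 29.98, 92.0, 40.5, 17.3 and 0 CPM in goblet clumps and at 0.671, 0, 0, 1.77 and 8.29 in clumps with none. It was lower in goblet clumps of mouse 5 alone.

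Neurog3 was found in 9 of 41 enteroendocrine clumps, or 22.0% (10.6 to 37.6%), Isl1 in 12 of 41, or 29.3% (16.1 to 45.5%), and Pax6 in 8 of 41, or 19.5% (8.82 to 34.9%). In clumps with none of the types, the shares were 0.440%, 0.196% and 0.342%. Neurog3 was also found in 14 of the 696 Paneth clumps, or 2.01%. Of the 27 clumps with a Pax6 UMI anywhere along the axis, 13 carried no type and 6 had no marker UMI of any type, more than for Isl1, where the counts were 6 and 0 of 24. Sox4 was found in 28 of 41 enteroendocrine clumps, or 68.3% (51.9 to 81.9%), in 24 of 53 tuft clumps, or 45.3% (31.6 to 59.6%), in 23.4% of Paneth clumps and in 22.0% of goblet clumps. It also had a UMI in 189 of the 2046 clumps with none, or 9.24% (8.02 to 10.6%). The pooled level of Sox4 was 94.6 CPM in enteroendocrine, 44.8 in tuft, 33.6 in Paneth and 26.4 in goblet clumps, and at 28.6 in clumps with none. By mouse Sox4 stood at 23.7, 0, 25.8, 27.2 and 0 CPM in goblet clumps and at 21.5, 5.75, 36.9, 30.9 and 20.7 in clumps with none, and goblet clumps of mouse 1 alone were the higher. Sox4 was with Neurog3 in 18 of the 30 clumps that had Neurog3, and with Isl1 in 12 of the 24 that had Isl1. Pou2f3 and Gfi1b were each found in 4 of 53 tuft clumps, or 7.55% (2.09 to 18.2%).

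**Figure D3:**
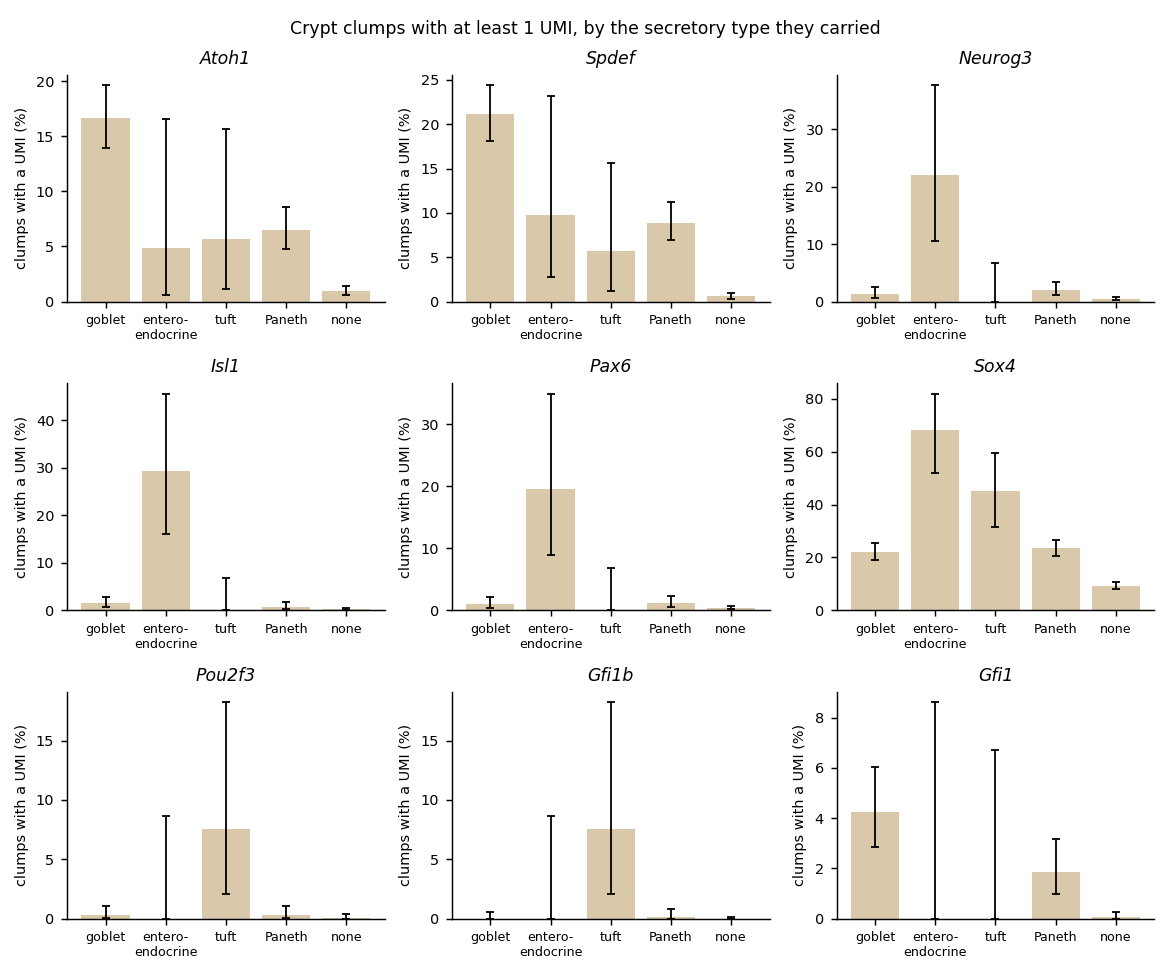
Share of crypt clumps with at least 1 UMI of each factor (vertical axes, percent, each panel on its own scale) by the secretory type that the clump carried, with 95% exact binomial intervals. Atoh1 (16.6%) and Spdef (21.1%) are highest in goblet clumps and Sox4 (68.3%) in enteroendocrine clumps, and Sox4 alone stands well above 0 in clumps without a type (9.24%).

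The level along the crypt-villus axis was compared between the sums of crypt clumps and of villus clumps of mice 1 to 5. In bulk sums like these, fewer cells of a type and less RNA per cell cannot be told apart. Sox4 was lower in the villus, and Neurog3 had no UMI there. Sox4 had 792 UMIs in the crypt and 15 in the villus. Its level was 27.0, 6.30, 38.5, 32.0 and 14.4 CPM in the crypt of mice 1 to 5, and 0.772, 1.54, 2.56, 3.04 and 3.65 in the villus. The lowest crypt value, in mouse 2, was above the highest villus value, in mouse 5, so the groups did not overlap. The means were 23.6 ± 13.1 and 2.31 ± 1.16 (SD, n = 5), and the pooled level was 14.6-fold higher in the crypt (95% exact interval 8.82 to 26.3). Of the 15 villus UMIs, 14 were in mid-villus clumps (2.56 CPM) and 1 in tip clumps.

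Neurog3 had 81 UMIs in the crypt and 0 in the villus. The crypt level was 6.36, 0, 0.693, 3.29 and 2.89 CPM in mice 1 to 5, so 4 of 5 mice had any, and those of mice 3 and 5 rest on 2 and 1 UMIs. Against the floor of 3 counts over all villus clumps (0.426 CPM), the pooled crypt level of 3.19 was at least 7.49-fold higher. Without mouse 3, which gave the most villus UMIs, it was at least 4.12-fold higher. Mouse 4 gave 62 of the 81 crypt UMIs, so the pooled bound sets different mice against each other. Within mice, 3 counts in the villus are 2.32, 2.31, 0.852, 4.56 and 10.9 CPM in mice 1 to 5. Only in mouse 1 was the crypt level above its own villus floor. The 81 UMIs came from 30 clumps, with up to 10 in 1 clump.

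Few of these genes are abundant enough for a filtered test. With the filterByExpr rule of edgeR none of the 9 factors was among the 8052 genes tested, of which 23.5% were higher and 24.7% lower in the villus by the quasi-likelihood test (Benjamini-Hochberg adjusted p under 0.05). Without the filter, 24640 genes were tested, with 6.85% higher and 11% lower. Among the 9 factors 0 were higher and 2 lower, namely Sox4 and Neurog3. Sox4 changed by −3.40 on the log2 scale (SE 0.53, edgeR adjusted p = 5.37e-05), beside a median of −0.32 over all genes in this fit, and by −3.11 (adjusted p = 0.000834) in pairs alone. Neurog3 passed with an edgeR adjusted p of 0.0185, and its fitted change is not given because the villus had no UMI. This call was lost without mouse 1 (adjusted p = 0.0975) or mouse 3 (0.0606), in pairs alone (0.0666) and with DESeq2 (0.0742), whereas the call for Sox4 held in each of these alternatives.

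For the goblet cell factors no difference along the axis passed the test. Atoh1 stood at 4.37, 6.30, 5.89, 7.63 and 8.66 CPM in the crypt of mice 1 to 5 and at 2.32, 2.31, 6.25, 4.56 and 10.9 in the villus. The groups overlapped, with 3 of 5 mice higher in the crypt, and the edgeR adjusted p was 0.728 (log2 −0.27, SE 0.53). Spdef stood at 8.34, 10.1, 11.4, 9.12 and 5.77 in the crypt and 4.63, 3.09, 7.38, 4.56 and 0 in the villus. All 5 mice were higher in the crypt, although the groups overlapped, and the edgeR adjusted p was 0.263 (log2 −0.77, SE 0.46). Gfi1 had 35 UMIs in the crypt and 6 in the villus, with an edgeR adjusted p of 0.625.

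Isl1 had 32 UMIs in the crypt, at 0.795, 1.26, 2.08, 1.17 and 2.89 CPM, and 3 UMIs in the villus, at 0.772, 0, 0.568, 0 and 0. All 5 mice were higher in the crypt and the groups did not overlap, although the closest values, 0.795 (2 UMIs) and 0.772 (1 UMI), were both of mouse 1. In the villus 3 counts are 2.32, 2.31, 0.852, 4.56 and 10.9 CPM in mice 1 to 5. This floor was above the crypt level in every mouse but mouse 3, so the villus values of 0 do not show a fall within those mice. The pooled ratio of 2.96 had an interval of 0.925 to 15.1, and the edgeR adjusted p was 0.296 (log2 −1.63, SE 1.03). Pax6 had 23 UMIs in the crypt, at 0.795, 0, 1.04, 0.954 and 0 CPM in mice 1 to 5, and 6 in the villus, at 1.54, 0, 0.284, 1.52 and 7.30. It was higher in the crypt of 1 mouse and lower in 3, the groups overlapped, and the pooled ratio of crypt to villus, to which mouse 4 gave 18 of the 23 crypt UMIs, was 1.06 (0.421 to 3.19). Pou2f3 had 8 and 2 UMIs and Gfi1b 6 and 0, at or near the floor of 3 counts, so differences for both were not detectable at this depth.

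**Figure D4:**
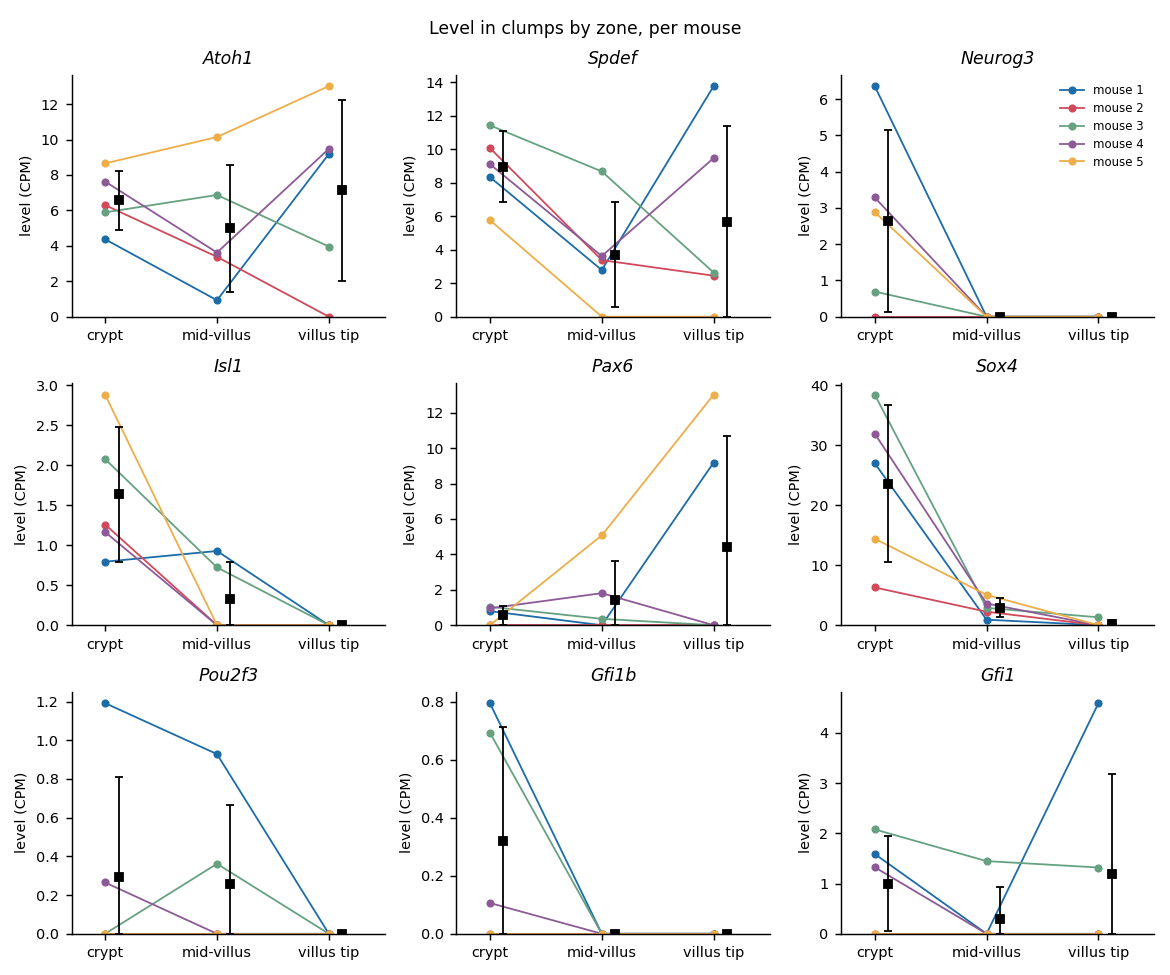
Level of each factor (vertical axes, CPM, each panel on its own scale) in crypt, mid-villus and villus tip clumps of mice 1 to 5, joined by mouse, with black squares for the mean and bars for 1 SD, drawn down to 0 at most. Sox4 and Neurog3 fall to 2.31 and 0 CPM in the villus as a whole, while the lines of Atoh1 and Spdef cross.

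Markers of the carrying cells moved along the axis as well. The 37 goblet markers summed to 1688 CPM in the crypt and 3231 in the villus, with 932 to 2044 and 975 to 4946 over the 5 mice. The 45 enteroendocrine markers summed to 92.6 (57.7 to 151) and 55.9 (35.0 to 81.1) and the 48 tuft markers to 213 (164 to 254) and 214 (71.8 to 381). The 10 Paneth markers summed to 6121 (15.1 to 15956) and 385 (10.0 to 1062), and their part in the levels was not tested.

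The factors were therefore also set against the markers of their type. Per 1000 goblet marker UMIs, Atoh1 had 4.20 UMIs in the crypt and 1.49 in the villus, Spdef 5.50 and 1.71, and Gfi1 0.816 and 0.264. Atoh1 and Spdef were also in 6.47% and 8.91% of crypt Paneth clumps, and Paneth markers were higher in the crypt. The part of Paneth cells in these ratios was not tested, so the ratios are not levels per goblet cell. For Spdef the log2 ratio was lower in the villus in 5 of 5 mice, by 1.68 on average. Mouse 5 had 0 Spdef UMIs in the villus and 2 in the crypt, so its villus ratio is set by the 0.5 added. The exact permutation test over all splits of the sums gave p = 0.00794 (two-sided, the smallest p it allows), and the exact sign-flip permutation test, which keeps crypt and villus of a mouse paired, p = 0.0625, the smallest that 5 pairs allow. For Atoh1 the difference was −0.97, lower in 4 of 5 mice (exact permutation p = 0.119, and 0.125 paired). With only the goblet markers that did not pass the villus against crypt test, the difference was −0.81 for Spdef (lower in 4 of 5 mice, exact permutation p = 0.0159, and 0.125 paired) and −0.10 for Atoh1 (p = 0.889 by the exact permutation test). These markers were picked by their result in the same sums, and a marker too low for the filtered test also counted as not passing. The p-values on them therefore cannot decide whether a factor changed against stable markers. Per 1000 enteroendocrine marker UMIs, Neurog3 had 34.4 in the crypt and 0 in the villus, where the floor was 7.61, Isl1 13.6 and 7.61, and Pax6 9.77 and 15.2. Pou2f3 had 1.48 and 1.33 UMIs per 1000 tuft marker UMIs, and Gfi1b 1.11 and 0. Gfi1 and these 5 factors had 0 UMIs in 3 to 7 of their 10 sums, so their ratios per mouse are set in part by the 0.5 added, and no p is given for them. Over the 8 factors compared, none passed 0.05 after Benjamini-Hochberg adjustment, with or without the pairing.

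Goblet clumps of the villus also held these factors. Of 169 such clumps, 23 had Atoh1, or 13.6% (8.83 to 19.7%), 27 had Spdef, or 15.98% (10.8 to 22.4%), and 4 had Gfi1, or 2.37% (0.649 to 5.95%). The intervals of these shares overlap those of crypt goblet clumps, which had a higher depth (median of 12149.5 UMIs against 3059). The crypt and villus sets hold different mice and clump sizes, since mouse 4 gave 538 of the 686 crypt goblet clumps, 533 of them larger clumps, and mouse 3, which had pairs only, 91 of the 169 villus ones. Levels were therefore set side by side within mice. Atoh1 stood at 34.4, 38.7, 33.7, 15.6 and 31.9 CPM in villus goblet clumps of mice 1 to 5, higher than in their crypt goblet clumps in 4 of 5 mice. Spdef stood at 57.3, 77.3, 40.8, 23.4 and 0 CPM in the villus and at 29.98, 92.0, 40.5, 17.3 and 0 in the crypt, higher in the villus in 3 mice and lower in 1. Of the villus values only those of mouse 3 (19 Atoh1 and 23 Spdef UMIs) rest on more than 5 UMIs, and no test was run on these levels. A clump of lower depth needs a larger share of marker UMIs to count as a goblet clump, and the part of this in the levels was not tested. Sox4 was in 3 of the 169, or 1.78% (0.368 to 5.10%), below its crypt share of 22.0%. Of the 2417 villus clumps without a type, 7 had Atoh1, 4 Spdef, 6 Pax6 and 9 Sox4.

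Between villus tip and mid-villus clumps no factor was called. None passed the filter, where 10% of 4329 genes were higher at the tip and 9.79% lower (857 genes in all, and 1784 with the mouse as a block). Without it, 7 factors were tested and 0 called, against 2.13% higher and 2.35% lower of 19769 genes. Of these 7, 0 had an unadjusted edgeR p under 0.05, and DESeq2 called 0. With DESeq2 size factors in edgeR the calls over all genes were 472 higher and 336 lower, against 422 and 465. For Sox4 the log2 change was −1.75 (SE 1.44, edgeR adjusted p = 0.633). Atoh1 had 27 UMIs in mid-villus and 7 in tip clumps (4.93 and 4.47 CPM pooled), and Spdef 32 and 7 (5.84 and 4.47 pooled). For both factors the counting intervals of mid-villus and tip clumps overlapped.

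Within the crypt, clumps were compared by cell cycle state, with the 25% of each mouse's crypt clumps that had the highest share of cell cycle UMIs called dividing (813 clumps) and the rest other (2438). Sox4 was higher in dividing clumps. It stood at 62.7, 18.3, 91.6, 40.4 and 32.7 CPM in dividing clumps of mice 1 to 5, and at 16.5, 3.18, 23.2, 28.1 and 7.85 in the other clumps. Each mouse was higher in its dividing clumps, and the groups overlapped. The change was 1.40 on the log2 scale (SE 0.43, edgeR adjusted p = 0.0452, and 0.00241 with the mouse as a block). Sox4 was the only factor among the 6227 genes tested, of which 5.4% were higher and 8.64% lower (874 genes in all, and 2121 with the mouse as a block). The call was lost without mouse 1 (adjusted p = 0.206), mouse 3 (0.243) or mouse 5 (0.102), without the filter (log2 1.32, adjusted p = 0.124, and 0.000235 with the mouse as a block), where 0.727% of 23369 genes were higher and 2.36% lower, and with clumps thinned to 500 UMIs for the cell cycle score (log2 1.02, adjusted p = 0.214). In pairs alone Sox4 did not pass the filter, and without it was not called (log2 1.65, edgeR adjusted p = 0.0718).

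Enteroendocrine markers stood at 127 CPM pooled in dividing clumps (median over mice 87.1, range 60.5 to 402) and at 78.3 in the other clumps (83.9, 47.1 to 106), higher in dividing clumps of 3 of 5 mice. Lymphocyte markers stood at 35.9 and 14.5 CPM pooled (higher in 3 of 5 mice, up to 609) and B and plasma cell markers at 35.1 and 4.95 (higher in 2 of 5, up to 1414 in mouse 2). The part of these markers in the Sox4 and Isl1 levels was not tested. Paneth markers went the other way, at 804 CPM in dividing clumps (12.2 to 2633 over the mice) and 8323 in the other clumps (15.9 to 19890), with median depths of 6259 and 4415.5 UMIs per clump. In crypt clumps that carried none of the 4 secretory types, a split made after the values were seen, Sox4 stood at 76.9, 15.5, 99.2, 39.8 and 35.2 CPM in dividing clumps and 7.56, 3.53, 21.9, 26.5 and 12.8 in the other clumps of mice 1 to 5. These levels rest on 23, 2, 36, 75 and 3 Sox4 UMIs in dividing clumps and on 9, 2, 33, 100 and 2 in the others, so those of mice 2 and 5 rest on 2 or 3 UMIs each. The part of Paneth cell content in the difference was not tested.

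For the other factors the dividing comparison passed no threshold. Without the filter 0 of the 9 factors were called by edgeR, 2 (Sox4 and Isl1) had an unadjusted p under 0.05, and DESeq2 called 1 (Sox4, adjusted p = 0.0494). Atoh1 was higher in 4 of 5 mice, at 8.71, 24.4, 12.4, 9.88 and 0 CPM in dividing clumps and 3.09, 1.59, 4.01, 6.59 and 11.8 in the others, with a log2 change of 0.95 (SE 0.57, edgeR adjusted p = 0.461). Isl1 had 18 UMIs in dividing and 14 in other clumps, also higher in 4 of 5 mice (log2 1.90, SE 0.90, edgeR adjusted p = 0.338). Pooled over the mice, the ratio of dividing to other clumps was 1.76 (1.29 to 2.39) for Atoh1, 3.10 (1.46 to 6.74) for Isl1, 1.83 (1.59 to 2.12) for Sox4 and 2.21 (0.885 to 5.48) for Pax6. It was 0.957 (0.710 to 1.28) for Spdef (9.00 and 9.41 CPM) and 0.845 (0.488 to 1.41) for Neurog3 (2.82 and 3.34 CPM). These intervals cover counting error only, not the spread between mice.

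**Figure D5:**
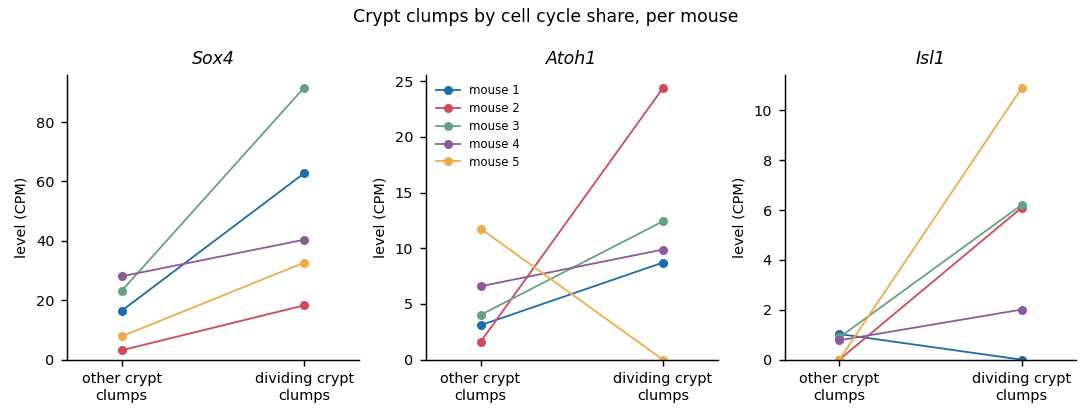
Level of Sox4, Atoh1 and Isl1 (vertical axes, CPM, each panel on its own scale) in the other and the dividing crypt clumps of mice 1 to 5, joined by mouse. The Sox4 line goes up in all 5 mice, to 18.3 to 91.6 CPM, while for Atoh1 and Isl1 it goes up in 4 of 5.

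No factor was called between larger crypt clumps and crypt pairs. None of the 6998 genes tested was called by edgeR (0% higher and 0% lower, with 174 at an unadjusted p under 0.05) or by DESeq2 (70 at that level), and Sox4 had a log2 change of 0.25 (SE 0.49, edgeR adjusted p = 1.00). Without the filter 0.0598% of 23394 genes were higher and 0.111% lower, with 0 of the 9 factors among them, 0 of the 9 at an unadjusted edgeR p under 0.05 and 0 called by DESeq2. The share of clumps with a UMI was higher in larger clumps, at 18.0% against 6.92% for Sox4, 5.72% against 1.64% for Atoh1 and 6.78% against 1.91% for Spdef, at median depths of 6875 and 2032 UMIs per clump. Mouse 3 had no larger clumps but gave 111 of the 140 Sox4 UMIs of crypt pairs, so levels were compared within mice 1, 4 and 5. Sox4 stood at 27.2, 32.2 and 16.1 CPM in their larger clumps and at 26.4, 20.9 and 0 in their pairs. Spdef stood at 10.5, 9.20 and 6.45 against 1.65, 5.22 and 0, and Atoh1 at 5.23, 7.74 and 9.68 against 1.65, 2.61 and 0. All 3 factors were thus higher in the larger clumps of 3 of 3 mice, but the pairs of mouse 5 had 36754 UMIs in all and those of mouse 4 gave 8, 2 and 1 UMIs of Sox4, Spdef and Atoh1. With the mouse as a block and without the filter, the edgeR adjusted p was 0.978 for each. Neurog3 stood at 6.28, 3.30 and 3.23 in larger clumps and 6.61, 2.61 and 0 in pairs. Its ratio pooled over all mice was 2.40 (1.11 to 6.18, counting error only), on 74 and 7 UMIs, and its edgeR adjusted p without the filter was 0.868.

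Other transcription factors and Notch genes of the secretory and enteroendocrine programmes were taken as a list of 36, of which 34 were matched. In the filtered comparison of villus and crypt, 8 were tested, of which 2 were higher and 3 lower in the villus by edgeR, beside 23.5% higher and 24.7% lower of all 8052 genes, with a median log2 change of −0.41 against 0.07 over all genes tested. Klf4, a goblet cell and differentiation factor, rose by 3.43 (SE 0.37, edgeR adjusted p = 1.50e-05), and it rose again from mid-villus to tip, by 1.92 (SE 0.34, edgeR adjusted p = 0.00186). Dll1, a Notch ligand of secretory progenitors, rose by 1.15 (SE 0.42, edgeR adjusted p = 0.0361), a call lost without mouse 2 (0.112) or mouse 5 (0.0681), with DESeq2 (0.0594) or its size factors (0.0539) and without the filter (0.149). Hes1, the Notch target that represses Atoh1, fell by 2.68 (SE 0.50, edgeR adjusted p = 0.000594), Sox9, a factor of crypt progenitors and Paneth cells, by 2.19 (SE 0.63, adjusted p = 0.0102) and Creb3l1 by 1.35 (SE 0.42, adjusted p = 0.0155, and 0.0815 in mice 1 to 3 alone). Without the filter 32 were tested, with 1 higher and 7 lower, beside 6.85% and 11% of all 24640 genes (median −1.29 against −0.32 over all genes). The 7 were Sox9, Hes1, Creb3l1, Notch1, Ascl2, Mnx1 and Fev, of which the last is a factor of serotonin-producing cells. Of the 4 not yet given, Notch1 fell by 1.82 (edgeR adjusted p = 0.0491) and Ascl2 by 3.00 (0.0096). Mnx1 (0.0333) and Fev (0.0494) had 52 and 28 UMIs in the crypt and 0 in the villus, so no fitted change is given.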

How the data were processed

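MARS-seq libraries of jejunal clumps and single cells were the source of both tables. The authors deposited whole-number UMI counts, by gene and well and not normalized, after alignment to GRCm38 (bcl2fastq 2.15.0.4 is named in the submitters' processing notes), and every column matched a labelled plate. Depth per state and type is given with the results and limits the rare factors to a few UMIs per mouse. The 10 factors and the other gene lists were chosen with earlier results of these data known. All 10 factors were named by rule. Other genes of the programme were given as counts, with the change or the adjusted p for those past the threshold.

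A clump needed over 500 UMIs, 200 or more genes and a mitochondrial share no higher than 30%. Those in the lowest 2% by share of landmark UMIs got no zone. Each other clump took the zone whose landmark list correlated best with its landmark UMIs. Background was not subtracted. For single cells the limits were 200 and 7000 UMIs, 150 and 1500 genes and a mitochondrial share of 40%, and the cells were clustered in scanpy 1.11.5 (2000 variable genes, 25 components, 20 neighbors, Leiden resolution 0.1) without the factors and without mitochondrial and a few abundant RNAs. No doublet caller was run, so doublets among the cells kept were removed only as far as the upper limits do so. A cluster was named with at least 3 markers of 1 list, and the most of any list, among its 50 leading genes.

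UMIs were summed per mouse and state (at least 5 clumps) and tested with edgeR 4.0.16 (quasi-likelihood, TMM, filterByExpr) in R 4.3.3, with Benjamini-Hochberg adjustment over all genes tested. The filtered tests were checked on counts simulated without a mouse effect, with changes placed only in genes of higher counts. The check does not cover fits without the filter or genes with few UMIs, such as most of the factors. Log2 ratios of a factor to its type's markers (0.5 added to both) were compared by exact permutation tests in scipy 1.17.1. Cell cycle genes were left out of the counts when clumps were split by them. States of the same mouse correlated after removal of group means, at 0.257 to 0.545 for villus and crypt, 0.307 to 0.541 for tip and mid-villus, 0.234 to 0.522 for dividing and other and 0.12 to 0.318 for larger clumps and pairs. The same number is the same animal, so the mouse as a block was fitted as an alternative. Other alternatives were no filter, each mouse left out, DESeq2 1.42.0, edgeR with the size factors of DESeq2, over 1000 UMIs per clump, pairs only, mouse 6 added, other zone, cell type and cell cycle rules, another pseudocount and other marker limits. Sequences are from RefSeq (GRCm38.p6).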

Additional observations from a re-analysis of the deposited data

Results flagged for a closer look

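Of 30 groups of per-mouse values, those with fewer than 4 mice or with all values equal could not be checked. Among the rest, 3 had 1 mouse far from the others. The rule gives about 1 in 20 by chance for normal values, whereas many of these values rest on a few UMIs. Pou2f3 in crypt clumps stood at 1.19 CPM in mouse 1, on 3 UMIs, against 0 to 0.265 in the other mice. Pax6 in villus clumps stood at 7.30 CPM in mouse 5, on 2 UMIs, against 0 to 1.54. Neurog3 was found in 33.3% of the enteroendocrine-like cells of mouse 3, that is in 4 of 12, against 0 to 0.913% in the other mice.

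Mouse 6, labelled h2n and left out of the comparisons, had 10 Sox4 UMIs in its crypt clumps (14.9 CPM) and 6 Spdef UMIs in its tip clumps (39.1 CPM).

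The upper limits on single cells left out 1339 wells with over 7000 UMIs or over 1500 genes, and these held UMIs of all 9 factors measured. Neurog3 had 81 of its 108 UMIs in such wells, spread over 10 of them, of which 8 had at least 10 enteroendocrine marker UMIs. Of 165 Pou2f3 UMIs 110 were there, in 64 wells that all had as many tuft marker UMIs. The counts were 55 of 80 for Gfi1b, 153 of 330 for Sox4 and 52 of 144 for Atoh1. They were 45 of 110 for Spdef, 92 of 275 for Isl1, 27 of 95 for Pax6 and 19 of 123 for Gfi1. Shares with these wells included are given under the dependence on processing. Whether such wells held 1 cell was not tested.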

How the results depend on the processing

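Without the filter Sox4 stayed lower in the villus, and called, under every alternative run, at log2 −3.58 to −3.03. With the filter it was not among the genes tested, except without mouse 2, without mouse 5 and in mice 1 to 3 alone. Counts of genes called moved by over 1.5 times for villus against crypt in pairs only (2013, against 3880), for tip against mid-villus with the mouse as a block (1784, against 857; 294 to 979 with 1 mouse left out) and for dividing against other clumps with the block (2121, against 874), in pairs only (252) and with 1 mouse left out (221 to 1282). For larger clumps against pairs 40 genes were called without the filter, and 26 to 145 without it and with 1 mouse left out. With the filter, 0 or 1 were called with 1 mouse left out. Without the filter, 1 factor in place of 2 was called in the villus by DESeq2 and in pairs only, and 1 or 2 with 1 mouse left out. In dividing clumps Sox4 gave 1 call, which was 0 without the filter and with thinned cell cycle UMIs, and 0 or 1 with 1 mouse left out. In pairs only Sox4 was not among the filtered genes. Without the filter that count was 0, and 1 with DESeq2 and with the block, and 0 or 1 with 1 mouse left out. The block changed no other call of a factor. The sign turned for Atoh1 in the villus in pairs only (0.12) and with mouse 6 (0.018), for Sox4 in larger clumps with 1 mouse left out (−0.0656 without mouse 2, and up to 0.65) and for Gfi1b per tuft marker with 0.1 added (−1.15), with uncalled markers (−0.46) and with 1 mouse left out (−0.71 to 0.78). Gfi1b had no villus UMI, so its ratio there is set by the amount added. No test of these was past its threshold, and the causes were not tested.

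Shares of cells fell with thinning to 500 UMIs, which takes UMIs away by construction, to 6.76% (Atoh1), 5.80% (Spdef) and 0.966% (Gfi1) in goblet-like cells, 14.0% (Isl1), 4.12% (Pax6) and 8.64% (Sox4) in enteroendocrine-like, 5.59% (Pou2f3) and 2.79% (Gfi1b) in tuft-like and 2.74% (Gfi1) in lymphocyte-like cells. With types by the most marker UMIs, leaving out the upper limits on cells (chosen after seeing the data) took the shares from 27.4% to 30.9% for Atoh1, 19.7% to 24.1% for Spdef and 3.85% to 7.23% for Gfi1 in goblet-like cells. In enteroendocrine-like cells they went from 2.86% to 5.65% for Neurog3, 32.9% to 37.1% for Isl1, 17.1% to 21.0% for Pax6 and 31.4% to 37.1% for Sox4, and in tuft-like cells from 19.8% to 31.6% for Pou2f3 and 10.4% to 18.0% for Gfi1b. With at least 30 marker UMIs, 371 crypt goblet clumps had Atoh1 in 25.9% and Spdef in 30.7%, 10 tuft clumps had Gfi1b in 30% and Sox4 in 20% (2 clumps, against 45.3% of 53), and 0 of 155 Paneth clumps had Neurog3 (against 2.01% of 696). The median log2 change of all genes tested, villus against crypt, moved from 0.07 with TMM to −0.04 with DESeq2 size factors, and, without the filter, from −0.32 to −0.30 with those size factors and to 0.25 with DESeq2 itself. Fits without the filter combined with another alternative, and mice 1 to 3 alone, were added after seeing the data. The levels of Pou2f3, Gfi1b and Gfi1 in the villus rest on 0 to 6 UMIs.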

Other observations

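Wells over the upper limits were also read by type. When each well took the type with the most marker UMIs, and 10 or more of them, 31 were stem and dividing-like (median 9431 UMIs), and 14 of them had Sox4, or 45.2% (95% exact binomial interval 27.3 to 64.0%). None of these 31 wells had Atoh1, Spdef or Neurog3. A further 35 were Paneth-like (median 14194 UMIs), of which 8 had Atoh1, 7 had Spdef and 5 had Sox4. By the same rule the cells kept held 18 Paneth-like wells (median 2174.5 UMIs), with 0 UMIs of every factor measured, and 1 stem and dividing-like well. Enterocyte-like wells over the limits, at a median of 9080.5 UMIs, had Sox4 in 10 of 930, or 1.08% (0.517 to 1.97%), and Atoh1 in 2. Among the 38 enteroendocrine-like wells over the limits (median 4968 UMIs), 26 had Sox4, or 68.4% (51.3 to 82.5%), and 8 had Neurog3, or 21.1% (9.55 to 37.3%). The 41 goblet-like wells (median 9084 UMIs) had Atoh1 in 20 and Spdef in 19. These are descriptions of the wells, set beside the shares of the cells kept, and depth differs between them.

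In the clumps of mouse 6, Sox4 stood at 14.9 CPM in 101 crypt clumps, at 2.75 in 69 mid-villus clumps and at 13.0 in 78 tip clumps, on 10, 1 and 2 UMIs. Atoh1 had 1, 1 and 3 UMIs, Pax6 2, 1 and 0, and Isl1 2, 0 and 0. Spdef had 1, 0 and 6. Neurog3, Pou2f3, Gfi1b and Gfi1 had none in these clumps, where 3 counts are 4.47 CPM in the crypt and 19.6 at the tip.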
